A study of Homo sapiens with 5 samples.

Results

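The mRNA of the transcription factor NRF2 (gene NFE2L2), of its inhibitor KEAP1 and of 7 antioxidant target genes (NQO1, GCLC, GCLM, TXNRD1, SRXN1, HMOX1 and OSGIN1) was examined after ELK4 knockdown in HCT116 cells. These 9 genes were matched by symbol as members of the pathway, by a rule that sets no limit on a measured value, and all 9 were found among the 20026 genes of the deposited tables. HCT116 is a colorectal carcinoma cell line. RNA-seq covered 2 samples transduced with the pLKO.1 lentiviral vector (pLKO) and 3 samples with ELK4 knockdown, each carrying a different shRNA (shELK4_1, shELK4_2 and shELK4_3). All of these cells were stably transduced, and infected cells were selected with puromycin. What the control vector carries in place of an ELK4 hairpin is not given in the sources used here. Each hairpin is represented by 1 sample, so the value of a single hairpin has no replicate of its own. The p-values measure the spread between these samples. Among the knockdown samples this spread includes differences between the hairpins. Nothing says that the 2 control samples came from separate cultures, so their spread may be partly technical.

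NRF2 is a basic leucine zipper factor that pairs with small MAF proteins and binds the antioxidant response element (ARE) of its target genes. In unstressed cells KEAP1 holds NRF2 for ubiquitination by CUL3, and NRF2 is degraded. Electrophiles and oxidants modify KEAP1, and NRF2 then accumulates, so that much of its activity is set at the level of the protein rather than of its mRNA. Its targets make glutathione, reduce quinones and peroxides, regenerate thioredoxin, break down heme and store iron. In bulk RNA, fewer cells that express a gene and less RNA per cell cannot be told apart.

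RefSeq promoter windows of 300 bases on GRCh38.p14 (250 before and 50 after a start site) were available for 8 of the 9 genes, as 11 windows. HMOX1 had none. An ARE core, TGACNNNGC on either strand, occurred in 4 of the 11 windows, those of GCLM, KEAP1 (1 of 2 windows) and TXNRD1 (both windows), against 13.3% of all 35116 promoter windows of this length. The matches for GCLM and TXNRD1 are shown because both are targets of NRF2 described here, and those of KEAP1 because the inhibitor of NRF2 is itself one of the genes with a match. Each sequence of 30 bases is written along the strand of the gene, with the letters of the match in capitals. Where the match is on the opposite strand, the capitals show the reverse complement of the core.
GCLM, chr1:93909445-93909474, minus strand: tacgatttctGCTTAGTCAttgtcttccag
TXNRD1, chr12:104215670-104215699, plus strand: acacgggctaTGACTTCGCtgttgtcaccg
TXNRD1, chr12:104215761-104215790, plus strand: gcgtccttcgGCTCCGTCAgttcccacagg
TXNRD1, chr12:104286920-104286949, plus strand: gtggatttctGCTTTGTCAttctgactctg
KEAP1, chr19:10502806-10502835, minus strand: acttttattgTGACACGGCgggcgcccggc
KEAP1, chr19:10502783-10502812, minus strand: gcccggctctGCTTAGTCAtggtgacctgc
The GCLM match and the second KEAP1 match hold the same 9 letters. ELK4 belongs to the ETS family, and an ETS core, CCGGAAG on either strand, occurred in 1 of the 11 windows, against 10.3% of all windows. It lay just after a start site of NFE2L2, which is why it is shown, on the opposite strand.
NFE2L2, chr2:177264109-177264138, minus strand: gcggcccggccCTTCCGGggctgcgcggct
A GC box core, CCGCCC on either strand, which SP1 and SP3 bind, occurred in 9 of the 11 windows, those of 6 of the 8 genes, against 45% of all windows. A match describes the letters of a window and does not show that a factor binds there. The lack of a match describes the window alone, since sequence farther from the start site was not searched.

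Expression was deposited as FPKM, fragments scaled to transcript length and to the total of mapped reads, calculated by the authors. Their sums were 309139 to 319870 per sample. The commonest ratio between samples among values under 0.05 FPKM put the depth of the other 4 samples at 0.90 to 0.95 of that of the first pLKO.1 sample. The absolute depth is unknown, and no counting error is given. The knockdown itself was visible in every sample. The control FPKM of ELK4 was 8.62 and 7.60, and 38.7%, 34.8% and 30.1% of the control mean remained with shELK4_1, shELK4_2 and shELK4_3. The log2 fold change of ELK4 was −1.26 (standard error (SE) 0.12, limma adjusted p = 0.029). This call was lost with any single sample other than shELK4_2 left out, while the log2 fold change stayed at −1.34 to −1.18. Without shELK4_1 or shELK4_3 the adjusted p was 0.0752 and 0.0779 from limma. In these fits 0 and 1 of all tested genes had an adjusted p under 0.05, against 18 with all 5 samples. The epithelial markers EPCAM, KRT8, KRT18 and KRT19 had an FPKM of at least 118 in every sample, while CDX1, VIL1 and LGALS4 were at or near 0. The summed FPKM of the 9 epithelial markers was 2619 to 2660 in the controls and 1479 to 1993 in the knockdown samples. Of the 5 leukocyte markers, only CD68 reached an FPKM of 1, and PTPRC and CD3E were at or near 0. Likewise, only COL1A1 did so among 5 fibroblast markers and none among 4 endothelial markers, with CDH5 listed at 0. The summed FPKM was 6.12 to 7.37 in the controls and 5.29 to 14.1 in the knockdown samples for the leukocyte list. For the fibroblast list it was 3.16 to 3.39 and 3.69 to 4.39, and for the endothelial list 0.032 to 0.047 and 0.057 to 0.126. The part of these marker levels in the results below was not tested.

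All 9 genes passed the limit on low values, an FPKM of at least 1 in 2 samples or more. None of them had an adjusted p under 0.05 from limma over the 10780 genes tested on log2(FPKM + 1), and 2 had an unadjusted p under 0.05, NQO1 on the higher and SRXN1 on the lower side. Across all tested genes, 0.167% had an adjusted p under 0.05, and an unadjusted p under 0.05 was found for 8.08% on the higher side and 8.14% on the lower side. NQO1 was also the only one of the 9 whose 3 knockdown samples all lay above both controls, and SRXN1 the only one whose 3 samples all lay below, where 19.1% and 21% of tested genes did so. The other 7 genes overlapped between the groups. The median log2 fold change was −0.18 over the 9 genes and −0.01 over all tested genes. The mean difference in log2(FPKM + 1) was negative for 8 of the 9, with that of NFE2L2 and KEAP1 close to 0. Of the 10780 tested genes, 5585 had a negative one. The mean FPKM of HMOX1 was higher with knockdown, at 132 against 120 in the controls. Without shELK4_3 the log2 fold change was 0.58 for HMOX1, 0.07 for GCLM and 0.00 for GCLC.

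**Figure D1:**
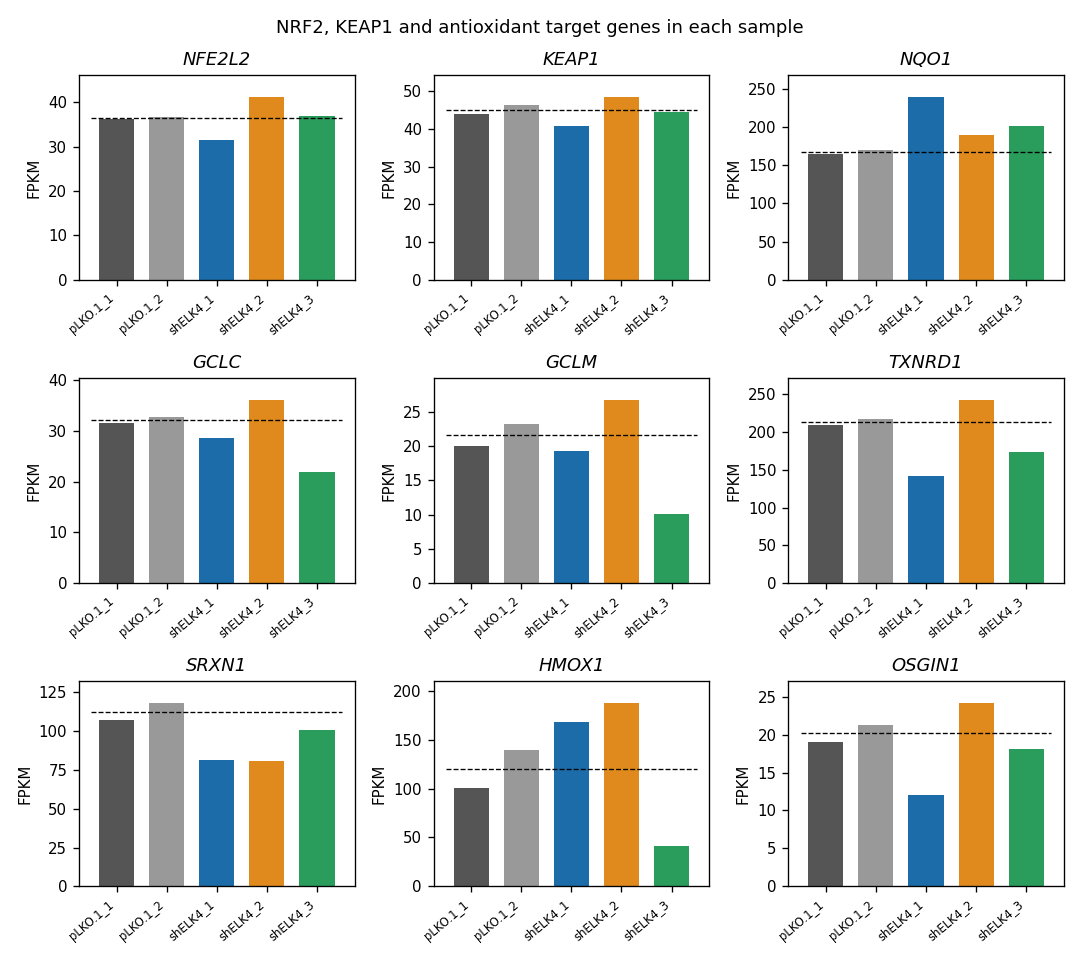
FPKM (y axis, from 0, a separate scale for each gene) of the 9 genes in each of the 2 pLKO.1 and 3 shELK4 samples (x axis). Bars are single samples and the dashed line is the mean of the 2 controls. NQO1 is above both controls with all 3 hairpins, SRXN1 below both, and GCLC, GCLM and HMOX1 are lowest with shELK4_3.

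NFE2L2, which encodes NRF2 itself, had an FPKM of 36.1 and 36.7 in the controls, 31.4 with shELK4_1, 41.2 with shELK4_2 and 36.9 with shELK4_3. The shELK4_1 sample was below and the other 2 were above both controls. The log2 fold change was −0.00 (SE 0.13, limma adjusted p = 0.989). Exons of other genes, most of them antisense, cover 38.4% of the exonic bases of NFE2L2 in GENCODE v44, and whether the reads kept their strand is not given, so its value is uncertain to that extent.
KEAP1, the adaptor that brings NRF2 to the CUL3 ligase, had an FPKM of 44.02 and 46.2 in the controls, against 40.8, 48.5 and 44.6 with hairpins 1 to 3. Both controls lay within the range of the knockdown samples, and the log2 fold change was −0.02 (SE 0.10, limma adjusted p = 0.948). The ratio of NFE2L2 to KEAP1 in FPKM was 0.820 and 0.794 in the controls, against 0.769, 0.849 and 0.827 after knockdown, again with overlap.

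NQO1, a quinone reductase and one of the most used readouts of NRF2 activity, had an FPKM of 164 and 170 in the controls, 239 with shELK4_1, 189 with shELK4_2 and 200.9 with shELK4_3. Every knockdown sample was higher than both controls, and the 3 samples stood at 143%, 113% and 120% of the control mean. The mean FPKM was 167 ± 4.38 (SD, n = 2) without and 210 ± 26.3 (SD, n = 3) with knockdown. The log2 fold change was 0.32 (SE 0.12), with an unadjusted p of 0.0316 and an adjusted p of 0.26 from limma, which misses the threshold over all genes. An antisense gene covers 19.4% of its exonic bases.
SRXN1, sulfiredoxin, reduces overoxidized peroxiredoxins. It had an FPKM of 107 and 118 in the controls, against 81.5, 80.9 and 100.5 after knockdown, so that every knockdown sample was below both controls, with shELK4_3 nearest to them. The mean FPKM was 113 ± 7.68 (SD, n = 2) without and 87.6 ± 11.1 (SD, n = 3) with knockdown, or 77.8% of the controls. The log2 fold change was −0.36 (SE 0.12), with an unadjusted p of 0.0224 and an adjusted p of 0.23 from limma. In GENCODE v44, an annotated gene on the same strand without a symbol (ENSG00000270299) covers 90.7% of the exonic bases of SRXN1, so the FPKM of SRXN1 is uncertain if the authors' annotation held both.
Both of these established targets of NRF2 thus kept one side in all 3 hairpins, but on opposite sides of the controls. Without pLKO.1 sample 1 or 2, the log2 fold change was 0.29 and 0.35 for NQO1 and −0.43 and −0.29 for SRXN1. The unadjusted p of both genes was then over 0.05 (limma), in fits where a lone control has no spread of its own. Without shELK4_1 the unadjusted p of SRXN1 was also over 0.05, at 0.0626 from limma.

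HMOX1, heme oxygenase 1, which opens heme to release iron, carbon monoxide and biliverdin, had the widest spread. Its FPKM was 100.3 and 139.9 in the controls, 168 with shELK4_1, 187 with shELK4_2 and 40.9 with shELK4_3. The first 2 hairpins were above both controls, at 140% and 156% of the control mean, and shELK4_3 was below both, at 34%. The controls themselves differed by 0.48 on the log2 scale. CD68, a macrophage and lysosome marker from the leukocyte list, had the same order of samples. It had 6.04 and 7.25 FPKM in the controls, against 10.1, 14.1 and 5.23 after knockdown, while PTPRC and CD3E were at or near 0. CD68 was set beside HMOX1 after its values had been seen, and a link between them was not tested. The log2 fold change of −0.12 (SE 0.63, limma adjusted p = 0.945) is an average of these opposite differences, and without shELK4_3 it was 0.58 (limma adjusted p = 0.199).
GCLC and GCLM encode the catalytic and the modifier subunit of glutamate-cysteine ligase, the rate-limiting enzyme of glutathione synthesis. GCLC had an FPKM of 31.6 and 32.8 in the controls, against 28.7, 36.1 and 22.0 after knockdown. GCLM had an FPKM of 20.1 and 23.2 in the controls, against 19.3, 26.8 and 10.2 after knockdown. For both subunits shELK4_2 was above and the other 2 hairpins were below both controls. With shELK4_3, GCLM stood at 47% and GCLC at 68.3% of the control mean. The ratio of GCLC to GCLM in FPKM was 1.57 and 1.41 in the controls, 1.49 with shELK4_1, 1.35 with shELK4_2 and 2.16 with shELK4_3, where it lay above the other 4 samples. The log2 fold changes over the 3 hairpins were −0.18 for GCLC (SE 0.19, limma adjusted p = 0.688) and −0.29 for GCLM (SE 0.35, limma adjusted p = 0.719). Without shELK4_3 they were 0.00 and 0.07. Exons of other genes cover 9.68% of the exonic bases of GCLC and none of those of GCLM.

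TXNRD1, cytosolic thioredoxin reductase, had the highest FPKM of the 9 genes in both controls, with 209 and 217. It stood at 142 with shELK4_1, 242 with shELK4_2 and 173 with shELK4_3, so that shELK4_1 and shELK4_3 were below and shELK4_2 above both controls. The log2 fold change was −0.23 (SE 0.21, limma adjusted p = 0.621). Without shELK4_2 it was −0.44, with an unadjusted p of 0.00852 and an adjusted p of 0.107 from limma, and without shELK4_1 it was −0.05. In the fit without shELK4_2, 2441 of 10727 tested genes had an unadjusted p under 0.05.
OSGIN1, an oxidative stress-induced growth inhibitor, had an FPKM of 19.1 and 21.3 in the controls, against 12.0, 24.1 and 18.1 after knockdown. As for TXNRD1, shELK4_1 and shELK4_3 lay below both controls and shELK4_2 above. Its log2 fold change was −0.20 (SE 0.26, limma adjusted p = 0.733).
By control level, the order was TXNRD1, NQO1, HMOX1 and SRXN1 close together, KEAP1, NFE2L2, GCLC, GCLM and OSGIN1. HMOX1 (100.3 and 139.9 FPKM) and SRXN1 (107 and 118) overlapped in the controls, as did GCLM (20.1 and 23.2) and OSGIN1 (19.1 and 21.3). The FPKM of NQO1 was 0.785 and 0.784 of that of TXNRD1 in the controls, and this ratio was 1.68 with shELK4_1, 0.780 with shELK4_2 and 1.16 with shELK4_3. The most abundant of the 9 was therefore NQO1 in 2 of the 3 knockdown samples.

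**Figure D2:**
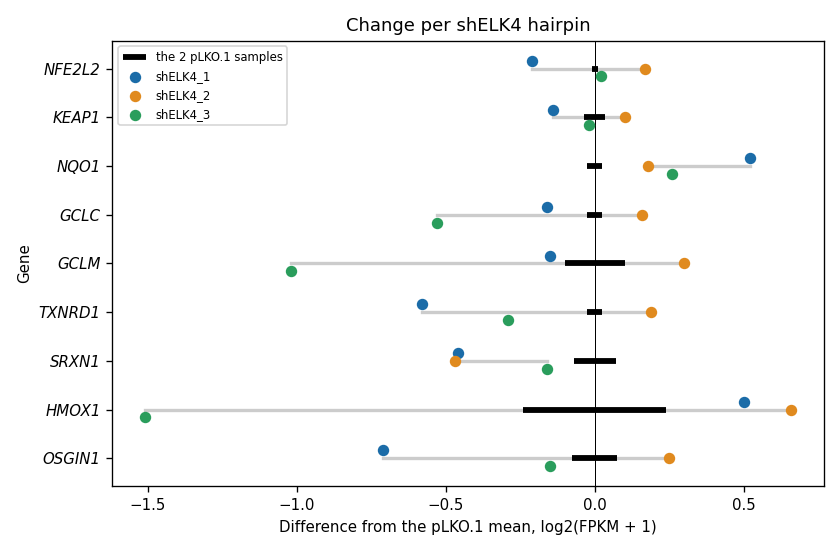
Difference of each shELK4 sample from the mean of the 2 pLKO.1 samples in log2(FPKM + 1) (x axis) for the 9 genes (y axis). Each point is 1 hairpin, the grey line joins the 3 hairpins, and the black bar spans the 2 controls. HMOX1 runs from −1.51 with shELK4_3 to 0.66 with shELK4_2.

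Read hairpin by hairpin, the 9 genes gave 3 different profiles. A difference of at least 0.5 on the log2(FPKM + 1) scale from the control mean was taken as a step for each hairpin, as a description without a test. With shELK4_1, NQO1 (0.52) and HMOX1 (0.50) were that far above and TXNRD1 (−0.58) and OSGIN1 (−0.71) that far below the controls, where 4.59% and 2.98% of tested genes were above and below. With shELK4_2, only HMOX1 (0.66) was that far above and no gene of the 9 that far below, against 3.17% and 5.73% of tested genes. With shELK4_3, none was that far above, and GCLC (−0.53), GCLM (−1.02) and HMOX1 (−1.51) were that far below, against 3.95% and 3.72% of tested genes.
In the shELK4_2 sample, 8 of the 9 genes lay above the control mean, all but SRXN1. In each of the shELK4_1 and shELK4_3 samples 7 of the 9 lay below it. The genes above the mean were NQO1 and HMOX1 with shELK4_1, and NQO1 and NFE2L2 with shELK4_3. Over all tested genes, 5181, 5043 and 5616 of 10780 lay above the control mean with hairpins 1 to 3. The range of ELK4 itself between the hairpins was 0.27 on the log2(FPKM + 1) scale, and the median range of all tested genes was also 0.27. ELK4 had an FPKM of 2.44 to 3.14 after knockdown, where this scale understates differences.

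The range between the 3 knockdown samples was at least 1 on the log2(FPKM + 1) scale for 2 of the 9 genes, HMOX1 (2.17) and GCLM (1.31). Among all tested genes 1.99% had such a range, and 2.19% of the 4830 genes with a mean FPKM of at least 10. The range was 0.95 for OSGIN1, 0.77 for TXNRD1 and 0.69 for GCLC. The range of HMOX1 was larger than that of 99.9% of tested genes, that of GCLM larger than 99.3% and that of OSGIN1 larger than 97.6%. NFE2L2 (0.38), NQO1 (0.34), SRXN1 (0.31) and KEAP1 (0.25) differed less between hairpins. The median range was 0.69 over the 9 genes and 0.27 over all tested genes. Since each hairpin is 1 sample, a difference between hairpins and a difference between single cultures cannot be told apart here.

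**Figure D3:**
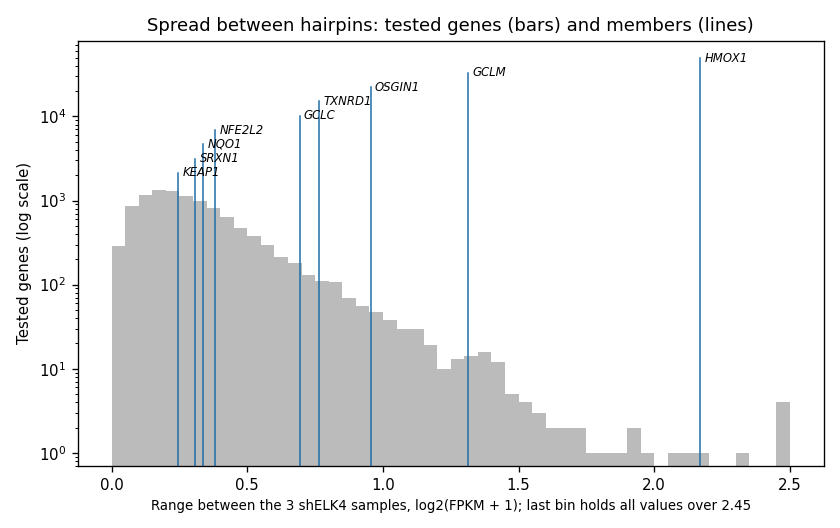
Range between the 3 shELK4 samples in log2(FPKM + 1) (x axis) for the 10780 tested genes (grey bars, number of genes on a log scale on the y axis). Each blue line marks 1 of the 9 genes, and only its place on the x axis carries a value. HMOX1 and GCLM lie past 1, where 1.99% of tested genes lie.

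SRXN1, as the gene of the 9 with the largest absolute log2 fold change when all 5 samples entered the fit on log2(FPKM + 1) without a block or rescaling, was compared with all other tested genes by the Euclidean distance of their differences from the control mean over the 5 samples. The 3 nearest genes were TAP2 (distance 0.0664), a subunit of the peptide transporter of antigen presentation, CDS1 (0.0855), an enzyme of phospholipid synthesis, and BCS1L (0.0981), an assembly factor of mitochondrial complex III. TAP2 had an FPKM of 18.8 and 20.1 in the controls, against 13.8, 13.3 and 17.6 after knockdown. The other 8 genes of the pathway lay at distances of 0.673 (KEAP1) to 2.02 (HMOX1). The 3 nearest genes were picked as the closest of all tested genes, and the spread of distances over all tested genes was not summarized.

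Beyond these 9 genes, 16 regulators of NRF2 were examined, of which 15 were tested. None had an adjusted p under 0.05 from limma, and 2 had an unadjusted p under 0.05, MAFF on the lower and PALB2 on the higher side, a share near that of all tested genes (8.14% and 8.08%). MAFF, a small MAF partner of NRF2, had an FPKM of 11.1 and 11.2 in the controls, against 7.53, 7.87 and 10.1 after knockdown, a log2 fold change of −0.37 (SE 0.13, limma adjusted p = 0.255). The knockdown samples all lay below both controls. MAFG, another small MAF protein, also lay below in all 3, with 32.3 and 33.3 FPKM in the controls, against 24.5, 31.7 and 26.4 after knockdown (log2 fold change −0.25, SE 0.12, limma adjusted p = 0.364). PALB2, a DNA repair protein that binds KEAP1, had a mean FPKM of 3.45 ± 0.0702 (SD, n = 2) without and 4.44 ± 0.515 (SD, n = 3) with knockdown, and its log2 fold change was 0.28 (SE 0.11, limma adjusted p = 0.285).
Of all tested genes, 21% lay below both controls in all 3 knockdown samples and 19.1% above. The other 12 tested regulators overlapped between the groups. Among them, BACH1, the repressor that competes with NRF2 at HMOX1, had an FPKM of 7.26 and 6.68 in the controls, against 4.08, 7.72 and 6.98 after knockdown, so that shELK4_1 was below both controls, at 58.5% of their mean, and shELK4_2 was above both. CUL3, the scaffold of the ligase, had 12.4 and 11.9 FPKM in the controls, against 12.1, 11.6 and 12.8 after knockdown. BACH1 and CUL3 were picked after their values had been seen. The median log2 fold change of the 15 regulators was −0.02.

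Of 30 further established targets of NRF2, 24 were tested. None had an adjusted p under 0.05 from limma, and 4 had an unadjusted p under 0.05, ABCC2, ABCC3 and EPHX1 on the higher and AKR1B10 on the lower side, where 8.08% and 8.14% of tested genes were called. The mean was higher for 17 and lower for 7, with a median log2 fold change of 0.07. Over all tested genes it was higher for 5195 of 10780, with a median of −0.01. The knockdown samples all lay above both controls for 6 genes (ABCC2, ABCC3, FTL, EPHX1, ABCC1 and PIR) and all below for 2 (AKR1B10 and PRDX1), against 19.1% and 21% of tested genes.
ABCC2 and ABCC3 encode efflux pumps that carry glutathione and glucuronide conjugates. ABCC2 had an FPKM of 12.2 and 11.5 in the controls, against 27.6, 21.5 and 13.9 after knockdown, and thus stood at 233%, 181% and 117% of the control mean. Its log2 fold change was 0.72 (SE 0.25, limma adjusted p = 0.246). ABCC3 had 2.93 and 2.70 FPKM in the controls, against 4.68, 4.23 and 3.45 after knockdown (log2 fold change 0.42, SE 0.13, limma adjusted p = 0.2). Both pumps kept the same order over the hairpins, with shELK4_1 highest and shELK4_3 nearest to the controls.
EPHX1, microsomal epoxide hydrolase, had 14.3 and 15.0 FPKM in the controls, against 17.9, 17.9 and 20.2 after knockdown (log2 fold change 0.33, limma adjusted p = 0.191). EPHX1 was named after its value had been seen. AKR1B10, an aldo-keto reductase, was close to the FPKM limit, with 1.07 and 1.05 in the controls, against 0.382, 0.690 and 0.403 after knockdown. Its log2 fold change was −0.47 (SE 0.12, limma adjusted p = 0.151), a scale on which the change of such a low gene is understated, and −1.01 with a pseudocount of 0.1 in place of 1.

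The ferritin genes, whose products store iron, were the most abundant targets. FTL, the light chain, had an FPKM of 1558 and 1653 in the controls, against 1743, 2619 and 1890 after knockdown, all above both controls (log2 fold change 0.35, SE 0.17, limma adjusted p = 0.365). Without shELK4_2 the log2 fold change of FTL was 0.18. FTH1, the heavy chain, had 1786 and 1918 in the controls, against 2179, 2899 and 1133 after knockdown, so that shELK4_3 was below and the other 2 hairpins were above both controls, the same order of hairpins as for HMOX1. Reads of both can be shared with processed pseudogenes, so their FPKM is uncertain.
A range between hairpins of at least 1 on the log2 scale was found for 3 of the 24 targets, against 1.99% of tested genes. They were FTH1 (1.35), SLC7A11 (1.16) and GSR (1.01), which were picked after their values had been seen. SLC7A11, the cystine importer, had 10.6 and 11.3 FPKM in the controls and 4.86 with shELK4_1, against 12.1 and 10.1 with the other hairpins. GSR, glutathione reductase, had 85.2 and 85.0 FPKM in the controls, against 102, 87.3 and 50.1 after knockdown. With shELK4_3, 16 of the 24 targets lay below the control mean, as did 5164 of all 10780 tested genes, and with shELK4_1 and shELK4_2 7 and 6 of the 24 did. The median range between hairpins was 0.43 over the 24 targets. Over the 17 tested general antioxidant enzymes described below it was 0.25, and 2 of them had a range of at least 1. These were PRDX3 (1.10) and PRDX2 (1.02), also picked after their values had been seen.
The 6 targets that were not tested stayed under the FPKM limit. AKR1C1, AKR1C2, AKR1C3 and GPX2 had an FPKM under 1 in every sample. CBR1 was listed at 0 in 4 of the 5 samples, and CBR3 reached 2.10 with shELK4_1 alone.

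**Figure D4:**
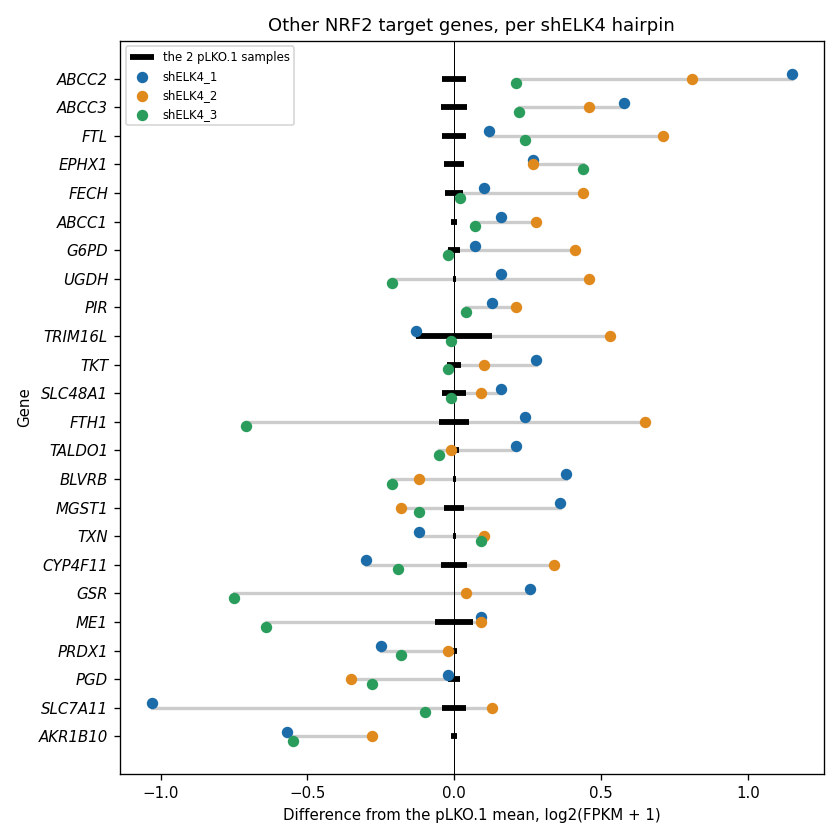
Difference of each shELK4 sample from the mean of the 2 pLKO.1 samples in log2(FPKM + 1) (x axis) for the 24 further NRF2 targets that were tested (y axis, ordered by log2 fold change). Each point is 1 hairpin and the black bar spans the 2 controls. ABCC2 and ABCC3 lie above the controls with every hairpin, while FTH1, GSR and ME1 lie below with shELK4_3 alone.

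Of 20 genes listed as general antioxidant enzymes outside the targets, 17 were tested and none had an adjusted p under 0.05 from limma. Only CAT had an unadjusted p under 0.05. CAT, catalase, which breaks down hydrogen peroxide, had an FPKM of 16.1 and 16.3 in the controls, against 25.6, 23.5 and 22.0 after knockdown, well above both controls with every hairpin. Its mean FPKM was 16.2 ± 0.155 (SD, n = 2) without and 23.7 ± 1.79 (SD, n = 3) with knockdown, and the log2 fold change was 0.52 (SE 0.10, limma adjusted p = 0.0997). In a fit with a weight for each group the adjusted p of CAT was 0.0228 from limma, and over all 14 alternatives it ran from 0.0228 to 0.89.
Over the antioxidant enzymes, the mean was lower after knockdown for 14 of the 17, with a median log2 fold change of −0.15. Over all tested genes it was lower for 5585 of 10780. The knockdown samples all lay below both controls for 8 of the 17 and above for 1, against 21% and 19.1% of tested genes. MSRB1, a methionine sulfoxide reductase, had 31.0 and 34.4 FPKM in the controls, against 30.7, 19.1 and 26.4 after knockdown (log2 fold change −0.38, limma adjusted p = 0.378). GSS, glutathione synthetase, had 21.3 and 21.5 FPKM in the controls, against 18.9, 12.0 and 19.1 after knockdown (log2 fold change −0.37, limma adjusted p = 0.405). For both, shELK4_2 was the lowest sample, and without it the log2 fold change was −0.19 for MSRB1 and −0.16 for GSS. GPX8, a peroxidase of the endoplasmic reticulum, had 7.44 and 8.24 FPKM in the controls, against 6.14, 7.09 and 5.91 after knockdown (log2 fold change −0.26, limma adjusted p = 0.31). TXNIP, a thioredoxin-binding protein rather than an enzyme, and GPX3 were listed at 0 in every sample and were not tested.

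Housekeeping genes gave a measure of how far abundant mRNAs moved in the same samples. Of 8, none had an unadjusted p under 0.05 from limma. Of all tested genes, 19.1% had all 3 knockdown samples above both controls and 21% had all 3 below. The knockdown samples all lay above both controls for RPLP0 (log2 fold change 0.22), a ribosomal protein. They lay below both for ACTB (−0.21), an actin, and PPIA (−0.21), a prolyl isomerase. With 1 sample left out these values were as near to 0 as 0.13 for RPLP0 and −0.09 for ACTB (both without shELK4_2), and −0.08 for PPIA (without shELK4_1). In single hairpins, housekeeping genes lay as far from the controls as SRXN1 did, with −0.47 for PPIA with shELK4_1, and −0.43 for ACTB and −0.45 for HPRT1 with shELK4_2.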

How the data were processed

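Poly(A) RNA of 5 HCT116 samples was sequenced on an Illumina HiSeq instrument. The authors deposited 1 table of FPKM per sample, calculated with Cufflinks and scaled to total mapped reads. The submitters' processing notes name Trimmomatic 0.36, HISAT2 2.0.5, Cufflinks 2.2.1 and HTSeq 0.9.1. The genome build, annotation and strandedness are not given in the sources used here. Of 20030 entries, 4 were dropped because their 2 names repeat.

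The limit for a test was an FPKM of 1 or more in 2 samples or more, which 10780 genes met. The test was limma 3.58.1 (R 4.3.3) on log2(FPKM + 1), with group as the only term, a trended variance and Benjamini-Hochberg adjustment. The fit was tested on simulated data. Named beyond the 9 genes were up to 4 genes per list with the largest change and no overlap, and those stated as picked later. Members and lists were chosen with earlier results of these data known. Tables and figures used Python 3.11.15, pandas 2.3.3 and matplotlib 3.10.9.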

Additional observations from a re-analysis of the deposited data

How the results depend on the processing

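Each fit was repeated under 14 alternatives: other pseudocounts, FPKM limits and scalings, a replicate block, group weights and each sample left out. None of the 9 genes had an adjusted p under 0.05 from limma in any of them. NQO1 (0.22 to 0.39) and SRXN1 (−0.46 to −0.29) and TXNRD1 (−0.44 to −0.05) kept their direction in all 14. TXNRD1 moved by over 1.5 times without shELK4 replicates 1 or 2. The direction of the others turned with the setting. NFE2L2 was 0.00 with median-of-ratios scaling, 0.05 with quantile normalization, 0.02 with equal FPKM totals, 0.01 without pLKO.1 replicate 2 and 0.10 without shELK4 replicate 1. KEAP1 was 0.04, 0.00, 0.02 and 0.04 under the last 4 of these. With the replicate block, in which shELK4_3 has no partner and drops out of the comparison, HMOX1 was 0.58, GCLM 0.07 and GCLC 0.00, as without shELK4 replicate 3. HMOX1 was 0.12 without pLKO.1 replicate 2, −0.36 without pLKO.1 replicate 1 and −0.43 without shELK4 replicate 1, and OSGIN1 0.05 without shELK4 replicate 1. Without shELK4 replicate 2, the values were −0.09 for NFE2L2, −0.08 for KEAP1, −0.35 for GCLC, −0.58 for GCLM, −0.51 for HMOX1 and −0.43 for OSGIN1. A lone control is assumed to vary like the other group. The replicate numbers name separate samples, and the difference between replicates 1 and 2 correlated at 0.0544 between the groups, so no pairing was used.

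ELK4 (−1.26) missed the threshold with every gene above 0 tested (−1.26, adjusted p = 0.114 from limma), with this and a pseudocount of 0.1 (−1.51, 0.145), and in the fits without 1 sample (−1.34 to −1.18) other than that without shELK4 replicate 2. The 18 genes with an adjusted p under 0.05 became 0 with every gene above 0 tested (with either pseudocount), 32 with an FPKM limit of 5, 413 with group weights and 0 to 95 without 1 sample. With a fold change of at least 2 as well, 13 genes became 0, 0, 22 with the replicate block, 42 with group weights and 0 to 34 without 1 sample. The 1749 genes with an unadjusted p under 0.05 became 571 to 2441 without 1 sample.

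Of the 9 genes, 2 had an unadjusted p under 0.05, and 0 to 4 without 1 sample. Of the further targets, 4 became 2 with an FPKM limit of 5 and 0 to 6 without 1 sample. Of the regulators, 2 became 1 with every gene above 0 tested, an FPKM limit of 5, the replicate block or quantile normalization, and 0 to 2 without 1 sample. Of the general antioxidant enzymes, 1 became 2 with a pseudocount of 0.1 or the replicate block. It became 7 with group weights and 2 to 5 without 1 shELK4 sample. Over all tested genes, 1749 became 2499 with group weights and 1955 to 2441 without 1 shELK4 sample. An adjusted p under 0.05 went from 0 to 1 of these enzymes with group weights, where all tested genes went from 18 to 413. With the FPKM limit of 5, ABCC3, AKR1B10 and PALB2 were no longer tested, since each was under 5 in every sample. The cause of the other moves was not tested. FPKM values give no read counts, so depth sets no stated limit here.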
